A study of Mus musculus with 12 samples.

Results

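Genes tied to the naive state of T cells and to their stay in, or exit from, lymph nodes (LN) were followed across CD4 and CD8 T cells of B6 and FlipFlop mice. The 9 members were listed by symbol: *Foxo1*, *Foxp1*, *Bach2*, *Klf2*, *S1pr1*, *Dapl1*, *Igfbp4*, *Actn1* and *Cd44*. All 9 were found among the 12809 genes of the expression table, and all 9 were among the 11595 genes tested after a filter on low values. The rule was this list of symbols and set no threshold on a measured value.

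The libraries came from T cells sorted by surface CD4 or CD8 from LN of female mice, with 3 libraries in each of 4 groups, CD4 and CD8 cells of either strain. B6 mice were C57BL/6 and 10 weeks old, with unaltered coreceptor loci. FlipFlop mice were 14 weeks old and carried both altered loci on both chromosomes, so that the *Cd8a* locus encoded CD4 protein and the *Cd4* locus encoded CD8 protein of the CD8.1 form. The *Cd8a* alteration was made in embryonic stem cells of strain 129 and the *Cd4* alteration in B6 embryonic stem cells, so a difference between the strains cannot be told apart from age or from 129 DNA that stayed in FlipFlop mice. Ages are those of the labels, and that of the FlipFlop mice lies above the general range in the study's methods. The labels do not say whether libraries of a group came from separate animals, and p-values measure only the spread between these libraries.

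A T cell that has not met its antigen stays quiescent and circulates among blood, lymph and LN. FOXO1 is a transcription factor that is held in the cytoplasm by AKT signaling and, when nuclear, drives genes such as *Klf2* and *Il7r*; KLF2 in turn drives *S1pr1*, whose product senses sphingosine 1-phosphate (S1P) and lets the cell leave the LN. FOXP1 and BACH2 restrain activation, whereas CD44, a hyaluronan receptor, stays low on naive T cells and rises on activated and memory T cells.

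To show the regulatory DNA of the 3 members with the largest differences, the bases just before their transcription start are given from RefSeq (GRCm38.p6), each 250 bases, 5′ to 3′ on the strand of the gene. Capitals mark a match to the KLF motif CACCC or the FOXO motif TGTTTAC on either strand. The *Dapl1* window spans chr2:59484403-59484652 on the plus strand, the *Igfbp4* window chr11:99040994-99041243 on the plus strand and the *Cd44* window chr2:102901666-102901915 on the minus strand.
Dapl1: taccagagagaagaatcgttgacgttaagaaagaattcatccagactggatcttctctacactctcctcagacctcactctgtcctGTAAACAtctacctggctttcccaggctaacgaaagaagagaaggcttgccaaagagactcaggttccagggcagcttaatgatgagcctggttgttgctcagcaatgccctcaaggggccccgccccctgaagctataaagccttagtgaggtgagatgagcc
Igfbp4: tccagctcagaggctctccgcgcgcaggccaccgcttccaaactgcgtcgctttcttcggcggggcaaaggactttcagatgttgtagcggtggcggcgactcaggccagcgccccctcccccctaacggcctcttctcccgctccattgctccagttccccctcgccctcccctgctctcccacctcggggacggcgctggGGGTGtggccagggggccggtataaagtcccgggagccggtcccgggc
Cd44: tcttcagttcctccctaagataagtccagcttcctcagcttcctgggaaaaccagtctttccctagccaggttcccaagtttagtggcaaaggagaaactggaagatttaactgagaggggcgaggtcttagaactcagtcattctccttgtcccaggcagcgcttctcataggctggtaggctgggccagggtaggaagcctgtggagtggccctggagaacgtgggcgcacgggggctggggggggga
*Dapl1* held 1 FOXO match, which starts 164 bases before the start site, and *Igfbp4* held 1 KLF match, 48 bases before it. *Cd44* held neither. Windows were given for 8 of the 9 members, 10 windows in all. The *Klf2* window held 1 KLF match and 2 *Foxp1* windows held 3 and 2. Windows are set by the RefSeq starts. The *Klf2* match lies past the start that GENCODE gives, within the transcript, and the *Foxp1* windows lie within the GENCODE span of the gene. Among all 32851 windows of this length, 52% held CACCC and 3.17% held TGTTTAC. The RUNX motif TGTGGT (14% of all windows) and the BACH motif TGANTCA (6.75% of all windows) had 0 matches in the windows of the members. A match is a description of letters and not a site of binding.

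Levels are given as CPM, the reads of a gene relative to the size of its library, which the authors had scaled by TMM, a factor that corrects for library composition. Behind the libraries stood about 26600000 to 33100000 reads on listed genes, and the lowest member in a library still held 799 reads, so depth did not limit the members. The *Cd4* and *Cd8a* transcripts followed the labels. In FlipFlop mice *Cd4* was at 670 ± 43.6 CPM among CD4 cells and at 42.2 ± 1.33 CPM among CD8 cells, and *Cd8a* at 0.921 ± 0.0595 and 145 ± 11.7 CPM (SD, n = 3). *Cd8b1*, which encodes the CD8 beta chain, ran the other way there, at 1829 ± 169 CPM among CD4 and 137 ± 12.9 CPM among CD8 cells (SD, n = 3). The T cell gene *Cd3e* was at 336 to 410 CPM in all 12 libraries. *Zbtb7b*, which encodes the helper-lineage factor ThPOK, stood at 196 ± 5.99 CPM for B6 CD4 and 168 ± 5.62 CPM for FlipFlop CD8 cells, against 1.55 ± 0.416 CPM for B6 CD8 and 2.29 ± 0.464 CPM for FlipFlop CD4 cells (SD, n = 3). These pairs of groups are named the helper-lineage and the cytotoxic-lineage groups, as the study places them. B6 CD4 replicate 1 stood apart, with a root mean square distance over genes of 0.40 on the log2 scale, averaged over the other replicates of its group, against 0.25 to 0.35 in the other 11 libraries. Member calls that changed without it are given beside the results or among the limits.

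Differences were tested on log2(CPM + 0.5) with limma over all 12 libraries, with Benjamini-Hochberg adjustment over the 11595 genes, and a gene was called at an adjusted p under 0.05. In these bulk libraries, fewer cells that express a gene and less RNA per cell cannot be told apart. Libraries of the groups compared did not overlap in 37.8% of all tested genes in B6 CD4 minus CD8. This share was 47.2% in FlipFlop CD4 minus CD8, 32.4% in FlipFlop CD4 minus B6 CD8 and 43.6% in FlipFlop CD8 minus B6 CD4. It was 40.5% in FlipFlop CD4 minus B6 CD4, 60.2% in FlipFlop CD8 minus B6 CD8 and 16.9% between the helper-lineage and cytotoxic-lineage groups.

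*Cd44* (ENSMUSG00000005087.17, chromosome 2 from 102811141 to 102901665, minus strand, GRCm38) was the marker of activated and memory T cells among the members. It was high in both helper-lineage groups and low in both cytotoxic-lineage groups. B6 CD4 cells held 68.9, 95.2 and 81.3 CPM of *Cd44* and B6 CD8 cells 42.6, 51.0 and 47.0 CPM. In FlipFlop mice the order was turned around, with 35.2, 41.8 and 38.9 CPM among CD4 and 159.6, 148 and 134 CPM among CD8 cells. No library of either helper-lineage group overlapped with the cytotoxic-lineage groups, and every FlipFlop CD8 library lay above every B6 CD4 library. The CD4 minus CD8 difference of *Cd44* was 0.79 (standard error 0.12, limma adjusted p = 2.83e-04) in B6 and -1.92 (standard error 0.12, limma adjusted p = 1.34e-07) in FlipFlop mice. Between the helper-lineage groups, *Cd44* was 1.81-fold higher in FlipFlop CD8 than in B6 CD4 cells (limma adjusted p = 4.35e-04). Between the cytotoxic-lineage groups the libraries did not overlap either, as in 32.4% of all tested genes. The difference of -0.28 (95% interval -0.53 to -0.02) did not pass the adjusted threshold (limma adjusted p = 0.185).

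*Dapl1* (ENSMUSG00000026989.5, chromosome 2 from 59484653 to 59505020, plus strand), a transcript known from naive CD8 T cells, showed the opposite order of groups. In B6 mice CD4 cells held 65.8, 56.2 and 47.9 CPM and CD8 cells 131, 120 and 115 CPM. In FlipFlop mice CD4 cells held 171, 157 and 105 CPM and CD8 cells 31.0, 26.4 and 25.1 CPM. The lowest cytotoxic-lineage library thus stood above the highest helper-lineage library, and FlipFlop CD8 cells were below B6 CD4 cells in every library. *Dapl1* fell by 1.11 on the log2 scale from B6 CD8 to B6 CD4 cells (standard error 0.16, limma adjusted p = 2.82e-04) and was higher by 2.35 in FlipFlop CD4 than in FlipFlop CD8 cells (standard error 0.16, limma adjusted p = 4.00e-07). At 5.08-fold, the latter was the only member difference in any of the 9 comparisons that also passed the rule in the study's methods, more than 5-fold with an unadjusted p under 0.05, which 2.21% of all tested genes passed in that comparison. *Dapl1* passed it narrowly. It was at 4.51-fold with the TMM factor taken out and at 4.62-, 4.83-, 4.99- and 4.87-fold without FlipFlop CD4 replicates 1 and 2 and FlipFlop CD8 replicates 2 and 3, in that order, all short of 5-fold. The share of all genes past this rule was 1.57% in B6 CD4 minus CD8, 0.535% in FlipFlop CD4 minus B6 CD8, 0.448% in FlipFlop CD8 minus B6 CD4, 1.47% in FlipFlop CD4 minus B6 CD4, 3.04% in FlipFlop CD8 minus B6 CD8, 1.61% for lineage, 0.0172% for coreceptor and 0.379% for strain. FlipFlop CD4 and B6 CD8 cells overlapped in *Dapl1*, with a difference of 0.21 (95% interval -0.15 to 0.57).

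Over all 12 libraries *Cd44* and *Dapl1* ran opposite to each other, with a Pearson correlation of -0.97 on the log2 scale. The points share libraries and fall into groups, and this value describes that order of groups.

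**Figure D1:**
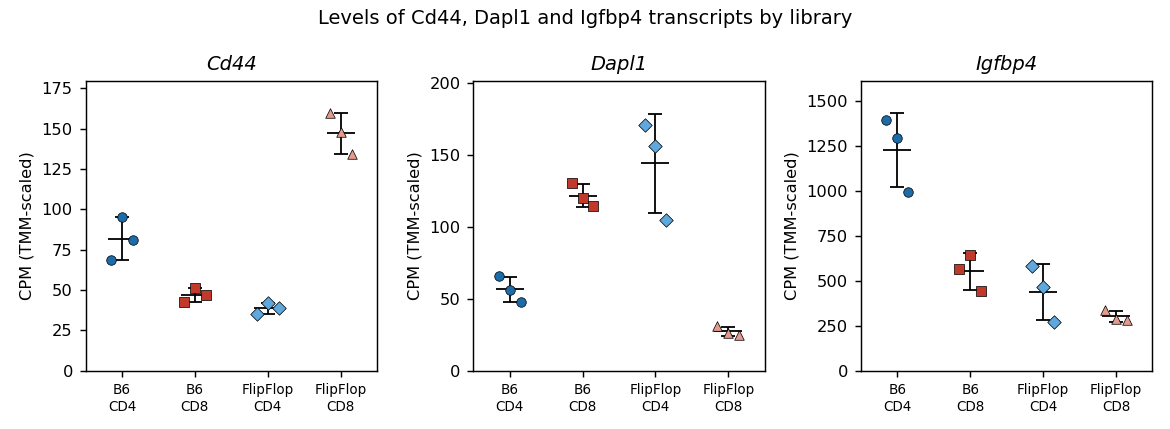
Levels of *Cd44*, *Dapl1* and *Igfbp4* in CPM (y axis, linear from 0) in the 4 groups (x axis). Each point is 1 library, the long line is the mean and the whiskers are ± SD (n = 3). *Cd44* was highest in FlipFlop CD8 cells at 147 ± 12.8 CPM, where *Dapl1* was lowest at 27.5 ± 3.08 CPM, and *Igfbp4* was highest in B6 CD4 cells at 1227 ± 207 CPM.

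*Igfbp4* (ENSMUSG00000017493.12, chromosome 11 from 99041244 to 99054392, plus strand), which encodes a secreted binding protein of insulin-like growth factors and is used as a marker of naive T cells, was highest in B6 CD4 cells. Its lineage effect of 0.34 (95% interval -0.02 to 0.71) was not called (limma adjusted p = 0.132), but was with a replicate block over all libraries (limma adjusted p = 0.0263). B6 CD4 cells held 1392, 1294 and 995 CPM, B6 CD8 cells 568, 645 and 443 CPM, FlipFlop CD4 cells 581, 466 and 272 CPM and FlipFlop CD8 cells 338, 289 and 281 CPM. All 3 B6 CD4 libraries stood above the 9 others, and neighbors in the order of the other groups were not called apart in the fit without pairing. *Igfbp4* was higher by 1.15 in B6 CD4 than in B6 CD8 cells (standard error 0.24, limma adjusted p = 0.00303). Between the helper-lineage groups it was 4.02-fold lower in FlipFlop CD8 cells, a log2 difference of -2.01 (standard error 0.24, limma adjusted p = 1.52e-04). FlipFlop CD4 replicate 3 was the lowest library of all at 272 CPM. With all libraries the FlipFlop CD4 minus CD8 difference was 0.47 (95% interval -0.04 to 0.99, limma adjusted p = 0.158), and without that library it was 0.79 (limma adjusted p = 0.00686). With the FlipFlop libraries fitted as pairs it was called too (limma adjusted p = 0.0216). Across both strains *Igfbp4* was higher in CD4 than in CD8 T cells by 0.81 (limma adjusted p = 0.0146) and lower in FlipFlop than in B6 T cells, with a log2 difference of -1.19 (limma adjusted p = 4.66e-04).

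*Actn1* (ENSMUSG00000015143.15, chromosome 12 from 80167547 to 80260371, minus strand) encodes alpha-actinin-1, which crosslinks actin filaments. B6 CD4 cells held 457, 562 and 554 CPM and B6 CD8 cells 541, 530.2 and 511 CPM, which overlapped. In FlipFlop CD4 cells it was 575, 662 and 601 CPM, above all libraries of the other groups, and in FlipFlop CD8 cells it was 433, 493 and 472 CPM. The difference of 0.39 between FlipFlop CD4 and CD8 T cells passed the test (standard error 0.09, limma adjusted p = 0.00559), whereas that in B6 mice was -0.01 (95% interval -0.21 to 0.18).

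Of the transcription factors, *Foxo1* (ENSMUSG00000044167.6, chromosome 3 from 52268336 to 52353221, plus strand) differed by at most 0.27 between any 2 groups. The B6 CD4 libraries stood at 336, 434 and 451 CPM and the B6 CD8 libraries at 353, 371 and 351 CPM. The FlipFlop CD4 libraries followed with 415, 422 and 461 CPM and the FlipFlop CD8 libraries with 415.8, 416.5 and 424 CPM. All 6 FlipFlop libraries lay above the 3 B6 CD8 libraries, and the low value of B6 CD4 replicate 1 set the spread of its group, 62.1 CPM (SD, n = 3) against 4.58 CPM in FlipFlop CD8 cells. With all libraries *Foxo1* was called in none of the 9 comparisons by limma. When only the 6 libraries of FlipFlop CD8 and B6 CD8 cells were fitted, it was called there (0.23, limma adjusted p = 0.00802). Without B6 CD4 replicate 1 it was called in 5 comparisons, with a difference of 0.30 between B6 CD4 and B6 CD8 cells (limma adjusted p = 0.00282), 0.27 between FlipFlop CD4 and B6 CD8 cells (limma adjusted p = 0.00770) and 0.23 between FlipFlop CD8 and B6 CD8 cells (limma adjusted p = 0.00442). The lineage effect was then 0.13 (limma adjusted p = 0.0210) and the coreceptor effect 0.17 (limma adjusted p = 0.0307). The exons of *Foxo1*, *Bach2* and *Actn1* overlap those of antisense genes and the exons of *Foxp1* overlap *Gm20696* (0.347 CPM on average), and without a stated strand the reads of antisense pairs cannot be told apart.

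*Foxp1* (ENSMUSG00000030067.17, minus strand) lies on chromosome 6 from 98925338 to 99522721 (GRCm38), on the same chromosome as and between *Cd8a*, which starts at 71373427, and *Cd4*, which starts at 124864692. Its group means were 166 ± 15.9 CPM in B6 CD4, 166 ± 17.1 in B6 CD8, 195 ± 15.6 in FlipFlop CD4 and 175 ± 18.7 in FlipFlop CD8 cells (SD, n = 3). All 4 groups overlapped with at least 1 other, and the 95% interval of the CD4 minus CD8 difference ran from -0.23 to 0.23 in B6 and from -0.07 to 0.39 in FlipFlop mice. *Bach2* (ENSMUSG00000040270.16, chromosome 4 from 32238804 to 32586108, plus strand) measured 72.1, 97.8 and 124.8 CPM in B6 CD4 cells, the widest spread of the factor, and 96.2, 73.9 and 87.4 CPM in B6 CD8 cells. FlipFlop CD4 cells held 106, 124.5 and 115 CPM and FlipFlop CD8 cells 90.6, 105.8 and 105.9 CPM. These did not overlap, as in 47.2% of all tested genes, but the nearest libraries were almost level at 105.95 and 105.91 CPM. *Foxp1* and *Bach2* were also called in none of the 9 comparisons in the fit over all libraries without pairing, so that 3 of the 9 members had no call there.

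*Klf2* (ENSMUSG00000055148.7, chromosome 8 from 72319033 to 72321656, plus strand), the factor that drives *S1pr1*, was lower in FlipFlop CD8 cells than in the other 3 groups. FlipFlop CD8 cells held 308, 301 and 246 CPM and FlipFlop CD4 cells 402, 443 and 361 CPM. The B6 libraries were at 487, 376 and 366 CPM for CD4 and at 448, 437 and 384 CPM for CD8 cells. All 3 FlipFlop CD8 libraries lay below the 9 others, which overlapped among themselves. The 3 differences were -0.57 from B6 CD8 (standard error 0.13, limma adjusted p = 0.00290), -0.52 from B6 CD4 (standard error 0.13, limma adjusted p = 0.0121) and, with FlipFlop CD4 higher, 0.50 within FlipFlop mice (standard error 0.13, limma adjusted p = 0.00942). Between B6 CD4 and B6 CD8 cells the difference was -0.05 (95% interval -0.33 to 0.22).

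*S1pr1* (ENSMUSG00000045092.8, chromosome 3 from 115710433 to 115715072, minus strand), the receptor through which T cells leave the LN, had the same low group. Its levels in FlipFlop CD8 cells were 603, 646 and 569.8 CPM, against 771, 836 and 660.2 CPM in FlipFlop CD4 cells. The B6 libraries were at 686, 757 and 856 CPM for CD4 and at 706, 769 and 762 CPM for CD8 cells. Each FlipFlop CD8 library was below the 9 others, of which FlipFlop CD4 replicate 3 was the nearest. The differences were smaller than those of *Klf2*: -0.33 from B6 CD4 (standard error 0.10, limma adjusted p = 0.0327), -0.30 from B6 CD8 (standard error 0.10, limma adjusted p = 0.0330) and 0.31 for FlipFlop CD4 over FlipFlop CD8 cells (standard error 0.10, limma adjusted p = 0.0363). These calls were lost when single libraries were left out, and all 3 in an ordinary linear model (adjusted p = 0.0574, 0.0537 and 0.0600). The call against B6 CD4 cells was also lost when only those 2 groups were fitted (limma adjusted p = 0.0796). In FlipFlop mice any of B6 CD8 replicates 2 and 3, FlipFlop CD4 replicates 1 and 2 and FlipFlop CD8 replicates 1 and 3 had this effect, and without FlipFlop CD4 replicate 2 the FlipFlop difference was 0.24 (limma adjusted p = 0.154). Without FlipFlop CD8 replicate 3 the 3 differences were -0.29, -0.26 and 0.27 (limma adjusted p = 0.116, 0.115 and 0.126). The Pearson correlation of *S1pr1* with *Klf2* over the 12 libraries was 0.67, a description over libraries that share groups. It was not particular to this pair. *S1pr1* had a correlation of 0.68 with *Actn1* and 0.64 with *Dapl1*, and *Klf2* one of 0.78 with *Dapl1*.

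**Figure D2:**
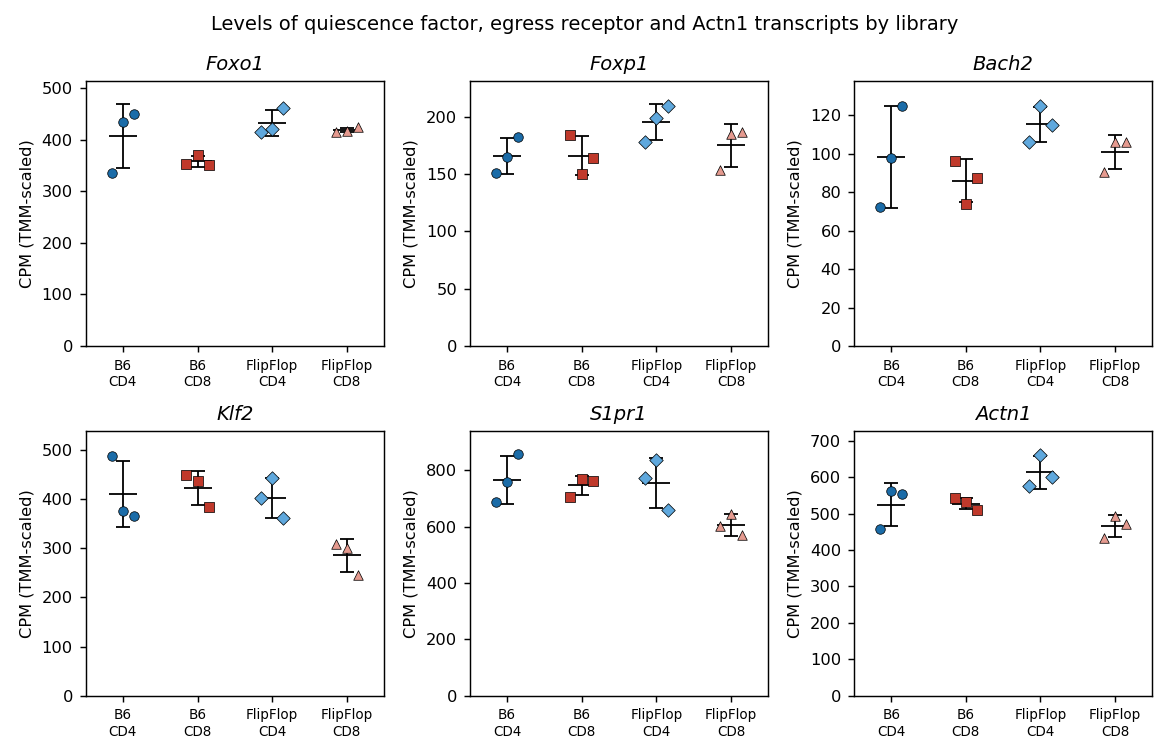
Levels of the transcription factors *Foxo1*, *Foxp1*, *Bach2* and *Klf2*, of the receptor *S1pr1* and of *Actn1* in CPM (y axes, linear from 0) in the 4 groups (x axes), with each library as a point and the mean ± SD as lines (n = 3). *Klf2* at 285 ± 34.0 CPM and *S1pr1* at 606 ± 38.3 CPM were lowest in FlipFlop CD8 cells, while *Foxp1* overlapped between groups.

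Scaling bears on these small differences. The columns of FlipFlop CD8 cells summed to 875501 to 940971 CPM and those of the other groups to 986107 to 1081793 CPM, because the TMM factor was already in the values. With the factor taken out, the median gene moved by -0.17 in FlipFlop CD4 minus CD8, by 0.16 in FlipFlop CD8 minus B6 CD4 and by 0.23 in FlipFlop CD8 minus B6 CD8. *S1pr1* then differed by 0.14, -0.17 and -0.06 in these comparisons (limma adjusted p = 0.331, 0.217 and 0.615) and *Actn1* by 0.22 between FlipFlop CD4 and CD8 T cells (limma adjusted p = 0.157), while *Klf2*, *Cd44* and *Dapl1* kept their calls in these comparisons. No member changed direction where it was called.

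The question of the first comparison is how normal CD4 and CD8 T cells differ. Between B6 CD4 and B6 CD8 cells 3 of the 9 members were called, *Cd44* and *Igfbp4* higher and *Dapl1* lower, beside 25.4% of all tested genes. The median absolute difference of the members was 0.17, as was that of all genes. In FlipFlop mice, with the coreceptor proteins exchanged between their loci, 5 members were called beside 31.3% of all genes: *Klf2*, *S1pr1*, *Dapl1* and *Actn1* were higher in FlipFlop CD4 and *Cd44* was higher in FlipFlop CD8 cells. Without the TMM factor 3 were called, 2 higher and 1 lower. The members' median absolute difference was 0.39, against 0.19 for all genes.

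The replicate numbers of the FlipFlop libraries behaved as pairs, so the FlipFlop comparison was also fitted on the 6 FlipFlop libraries with the replicate number as a block. Libraries with the same number stood high or low together in several members. Replicate 3, for example, was the lowest of its group in *Klf2*, *S1pr1*, *Igfbp4* and *Dapl1* in both FlipFlop CD4 and FlipFlop CD8 cells. With the block, 8 of the 9 members were called beside 50.4% of all genes, 7 higher in FlipFlop CD4 cells and *Cd44* lower. The members gained were *Foxp1* at 0.16 (standard error 0.04, limma adjusted p = 0.00812), *Bach2* at 0.19 (standard error 0.04, limma adjusted p = 0.00502) and *Igfbp4* at 0.47 (standard error 0.14, limma adjusted p = 0.0216). *S1pr1* had a limma adjusted p of 5.19e-04 with the block, and *Foxo1* was the member not called (0.05, standard error 0.04, limma adjusted p = 0.348).

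**Figure D3:**
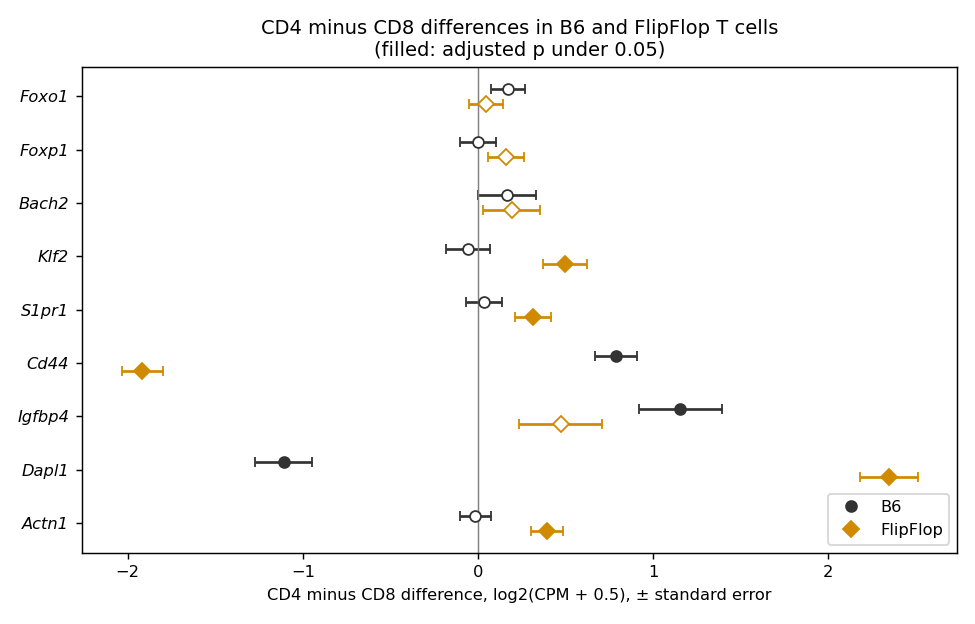
CD4 minus CD8 differences of the 9 members on the log2(CPM + 0.5) scale (x axis) in B6 (circles) and FlipFlop (diamonds) T cells, with bars of ± 1 standard error and filled symbols for calls by limma without pairing. *Cd44* and *Dapl1* lie on opposite sides of 0 in the 2 strains (0.79 and -1.92, -1.11 and 2.35), and *Igfbp4* lies to the right of 0 in both.

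Between groups of the same lineage, 0 of the 9 members were called in FlipFlop CD4 against B6 CD8 cells, beside 7.92% of all genes, and at an unadjusted p under 0.05 there were 5 (*Foxo1*, *Foxp1*, *Bach2* and *Actn1* higher and *Cd44* lower), beside 22.9% of all genes. The largest member difference was that of *Bach2*, 0.43 (95% interval 0.07 to 0.79, limma adjusted p = 0.145). When only these 6 libraries were fitted, *Foxo1* at 0.27 (limma adjusted p = 0.0356) and *Bach2* at 0.43 (limma adjusted p = 0.0424) were called. Without B6 CD4 replicate 1 both were called too, *Bach2* with a limma adjusted p of 0.0336. Between FlipFlop CD8 and B6 CD4 cells 5 members were called beside 27.6% of all genes, with *Cd44* higher and *Klf2*, *S1pr1*, *Igfbp4* and *Dapl1* lower in FlipFlop CD8 cells. Without FlipFlop CD8 replicate 3 the call of *Klf2* was lost (-0.42, limma adjusted p = 0.0560), and without B6 CD4 replicate 1 *Actn1* was called (-0.26, limma adjusted p = 0.0335).

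Between groups of the same coreceptor, 3 members were called in FlipFlop CD4 against B6 CD4 cells beside 28.4% of all genes. *Dapl1* was higher by 1.32 in FlipFlop CD4 cells, and *Cd44* and *Igfbp4* had differences of -1.06 and -1.53. Without B6 CD4 replicate 3 *Bach2* was called as well (0.45, limma adjusted p = 0.0340). In FlipFlop CD8 against B6 CD8 cells 5 members were called beside 44.7% of all genes, with *Cd44* higher by 1.64 and *Dapl1*, *Igfbp4*, *Klf2* and *S1pr1* at differences of -2.13, -0.85, -0.57 and -0.30. The *Igfbp4* call was lost without B6 CD8 replicate 2 (-0.73, limma adjusted p = 0.0514), and without B6 CD4 replicate 1 *Actn1* was called as well (-0.18, limma adjusted p = 0.0414). Without the TMM factor the count was again 5, now 2 higher and 3 lower, because *Foxo1* at 0.46 (limma adjusted p = 0.00616) entered and *S1pr1* left. The comparisons share groups of libraries and are not independent of each other.

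Over all 4 groups, the variation of each member was divided into a lineage effect (the helper-lineage groups against the cytotoxic-lineage groups), a coreceptor effect (CD4 against CD8), a strain effect (FlipFlop against B6) and the spread between replicates. Lineage held 81.2% of the sum of squares of *Dapl1* and 79.6% of that of *Cd44*, with 4.04% and 2.94% between replicates. Strain held 56.5% in *Igfbp4*, followed by the coreceptor with 26.3%. In *Bach2*, *Foxp1* and *Foxo1* the spread between replicates held 61.3%, 58.7% and 49.5%. *Klf2* and *S1pr1* were divided among all parts, with 26.1% and 16.1% for lineage and 30.0% and 21.2% for strain. The coreceptor held 16.8% and 25.0% and the spread between replicates 27.2% and 37.7%, in the same order.

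**Figure D4:**
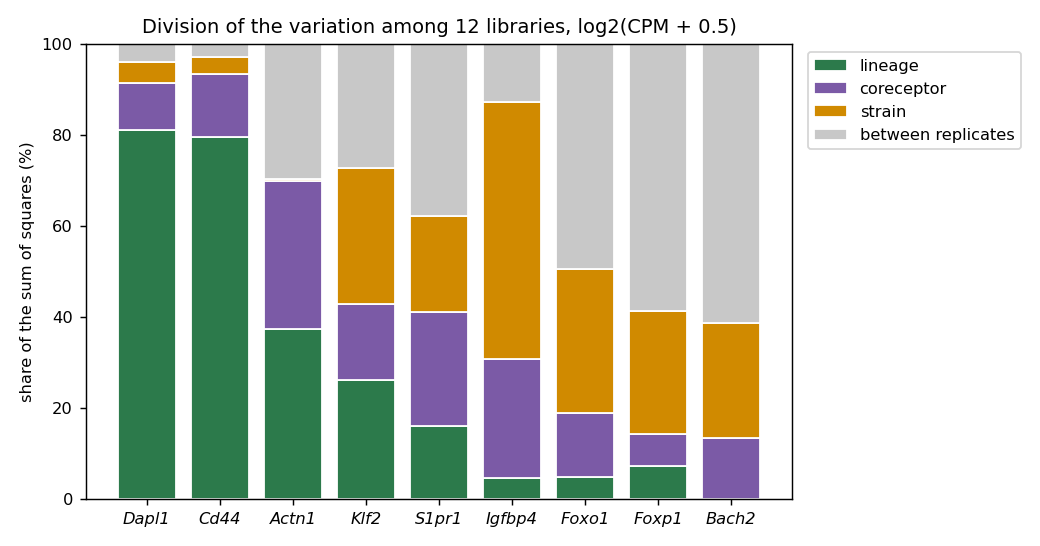
Share of the sum of squares of log2(CPM + 0.5) over 12 libraries (y axis, in %) that fell to lineage, coreceptor, strain and the spread between replicates, for each member (x axis). The lineage part is 81.2% in *Dapl1* and 0.0644% in *Bach2*, and the strain part is highest in *Igfbp4* at 56.5%.

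By limma, the lineage effect was called for 4 members beside 39.3% of all genes: *Cd44* at 1.35 (limma adjusted p = 6.54e-08), *Dapl1* at -1.73 (limma adjusted p = 1.59e-07), *Klf2* at -0.28 (limma adjusted p = 0.0267) and *Actn1* at -0.20 (limma adjusted p = 0.0243). Without the TMM factor, which moved the median gene by 0.12, the lineage effects of *Klf2* at -0.15 and *Actn1* at -0.08 were not called and *Igfbp4* at 0.46 was, so that 2 were higher and 1 was lower in place of 1 and 3. With a replicate block over all libraries *S1pr1* and *Igfbp4* were called for lineage too (limma adjusted p = 0.0436 and 0.0263). In an ordinary linear model the lineage call of *Klf2* was lost (adjusted p = 0.0615). *Klf2* and *Actn1* also lost this call when single libraries were left out, *Klf2* down to -0.23 without FlipFlop CD8 replicate 3 (limma adjusted p = 0.0680) and *Actn1* down to -0.18 without FlipFlop CD4 replicate 2 (limma adjusted p = 0.0656). The coreceptor effect was called for 3 members beside 5.49% of all genes: *Igfbp4* at 0.81, *Dapl1* at 0.62 and *Cd44* at -0.56. An ordinary linear model called *Cd44* alone, with adjusted p = 0.0707 for *Igfbp4* and 0.0506 for *Dapl1*. With a replicate block over all libraries *Klf2* was called as well (limma adjusted p = 0.0399). For *Dapl1* and *Cd44* this effect is the mean of CD4 minus CD8 differences that had opposite signs in the 2 strains. The strain effect was called for 4 members beside 31.2% of all genes, *Igfbp4* at -1.19, *Dapl1* at -0.40, *Klf2* at -0.30 and *Cd44* at 0.29. Of these, *Klf2* lost its call in 4 of the 12 fits that left out 1 library and *Dapl1* and *Cd44* in 2 each, and in an ordinary linear model *Igfbp4* alone was called. The strain effects of *Dapl1* and *Cd44* are means of FlipFlop minus B6 differences of opposite signs. These were 1.32 and -1.06 among CD4 and -2.13 and 1.64 among CD8 cells. Same-numbered FlipFlop libraries behaved as pairs but were counted as independent, so the p-values for strain may be too small. Without the TMM factor, which moved the median gene by 0.11, *Foxo1*, *Foxp1* and *Bach2* were called higher in FlipFlop T cells at 0.27, 0.27 and 0.36 (limma adjusted p = 0.0233, 0.0400 and 0.0499) and *Klf2* was not called, so that 4 were higher and 2 were lower in place of 1 and 3.

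Markers of other T cell states were followed as gene lists. The counts in each gene list that follows stand beside 39.3% of all tested genes called for lineage, 5.49% for the coreceptor and 31.2% for strain. The summed level of 8 markers of regulatory T cells was 456 to 547 CPM among B6 CD4 and 62.6 to 69.5 CPM among B6 CD8 libraries. In FlipFlop mice it was 70.6 to 75.1 CPM among CD4 and 1094 to 1275 CPM among CD8 libraries. All 8 were higher in the helper lineage and 7 of 8 were higher in FlipFlop mice. *Foxp3*, their defining factor, was at 108 ± 18.1 CPM for B6 CD4 and 326 ± 31.1 CPM for FlipFlop CD8 cells (SD, n = 3), the groups in which *Cd44* was high and *Dapl1* low. The part of these cells in the differences of the members was not tested.

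Of 22 genes of memory or effector T cells, 10 were higher and 5 were lower in the helper-lineage groups, beside 39.3% of all genes, with a median lineage effect of 0.21 against -0.03 for all genes. *S100a4* and *S100a6*, calcium-binding proteins, were higher by 3.59 and 2.48, while the cytotoxic-lineage genes *Nkg7* and *Eomes* had lineage effects of -4.61 and -2.73. The summed level of this list was 1484 to 1574 CPM among B6 CD4 and 3126 to 3400 CPM among B6 CD8 libraries, and 1898 to 1929 CPM among FlipFlop CD4 and 2065 to 2993 CPM among FlipFlop CD8 libraries. This sum, in which genes of high level weigh most, was highest in B6 CD8 cells, unlike *Cd44*. Counted by gene, 14 of the 22 were higher and 1 was lower in FlipFlop CD8 than in B6 CD4 cells (median 1.07), beside 27.6% of all genes, and in FlipFlop mice 12 were lower and 3 were higher in CD4 than in CD8 cells (median -0.88), beside 31.3% of all genes. *Cd44* was also higher in FlipFlop CD8 cells in both comparisons. In B6 mice 6 of the 22 were higher and 10 were lower in CD4 than in CD8 cells (median -0.10), beside 25.4% of all genes. There *Cd44* was higher in CD4 cells. By coreceptor 12 of the 22 were lower in CD4 than in CD8 T cells and 0 were higher, beside 5.49% of all genes.

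Markers of non-T cells were also followed. B cell markers summed to 631 to 828 CPM in all libraries, with *Ighm* at 467 to 636 CPM, and of 9 tested 1 was higher (*Cd74*) and 1 lower (*Cd79b*) with lineage. By strain 6 of these 9 were lower in FlipFlop mice, and 5 were lower in FlipFlop CD8 than in B6 CD4 cells, beside 27.6% of all genes. Myeloid markers (6 of 8 in the table) summed to 7.38 to 30.7 CPM, 3 of 6 higher with lineage. In FlipFlop CD4 cells 4 of 6 were lower than in FlipFlop CD8 cells, beside 31.3% of all genes. NK cell markers (4 of 6 in the table) summed to 2.83 to 20.03 CPM, 1 higher and 2 lower with lineage. By coreceptor 3 of these 4 were lower in CD4 cells, and by strain 3 were lower and 1 was higher in FlipFlop mice. Of 9 general T cell markers 1 was higher and 2 were lower with lineage, and 4 were lower and 0 higher by strain. In FlipFlop CD8 against B6 CD4 cells 5 of the 9 were lower and 0 higher (median -0.22), beside 27.6% of all genes, the direction of *Klf2* and *S1pr1* there. The part of these markers in the differences of the members was not tested.

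Among 17 other genes known from naive T cells, 3 were higher and 7 were lower in the helper-lineage groups, with a median lineage effect of -0.18 against -0.03 for all genes. Those lower included *Arl4c* at -0.73, *Pdlim1* at -0.67 and the complement regulator *Cd55* at -0.51. *Amigo2* at 1.02, *Trib2* at 0.92 and *Rgs10* at 0.34 were higher. By strain 9 of the 17 were lower and 2 were higher in FlipFlop T cells. FlipFlop CD8 cells were the lowest of the 4 groups in 11 of the 17 (64.7%) and in 5 of the 9 members (55.6%), beside 34.3% of all tested genes.

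*Ccr7*, the chemokine receptor for entry into LN, had a coreceptor effect of 0.29 (limma adjusted p = 0.0152) and a lineage effect of -0.08 that was not called. *Lef1* was lowest in FlipFlop CD8 cells at 316 ± 17.0 CPM, against 533 ± 20.6 CPM in FlipFlop CD4 cells (SD, n = 3). *Il7r* was lower in FlipFlop T cells by strain, at -0.39 (limma adjusted p = 0.0126), and *Tcf7* had a lineage effect of 0.05 that was not called.

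Genes that act above FOXO1 were followed as a list of 15, of which 2 were higher and 3 lower with lineage, beside 39.3% of all genes. *Sgk1*, a kinase that phosphorylates FOXO proteins, was at -0.83, the PI3K catalytic subunit *Pik3cd* at -0.58 and the PI3K regulatory subunit *Pik3r5* at -0.36, while the kinase *Akt2* was higher by 0.23. The median lineage effect of the list was -0.05 against -0.03 for all genes. Of 18 other quiescence factors tested, 5 were higher and 5 were lower, among them *Slfn2* at 0.40, *Foxo4* at 0.36, *Btg2* at 0.36 and *Tob1* at 0.36 on one side and *Pik3ip1* at -0.32, *Klf3* at -0.31, *Vsir* at -0.29 and *Elf4* at -0.25 on the other.

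Of 15 tested genes of the S1P pathway and of LN egress and homing, 3 were higher and 3 lower with lineage, a share near the 39.3% of all genes. *Gpr183*, a receptor for oxysterols that guides positioning in LN, was higher by 0.72, followed by the integrin subunit *Itgb2* at 0.20 and the G protein subunit *Gnai2* at 0.17. Those lower included the S1P-making kinase *Sphk2* at -0.27 and *Grk2*, a kinase that desensitizes receptors such as S1PR1, at -0.21. Among 10 tested relatives and partners of BACH2 and FOXP1, 7 were higher and 1 was lower in the helper-lineage groups, with a median of 0.42. *Irf4* was higher by 1.57, *Batf* by 0.61, *Foxp4* by 0.49 and *Mafg* by 0.47, and *Bach1*, the paralog of *Bach2*, was at -0.35. *Bach2* itself had a lineage effect of -0.01 (95% interval -0.27 to 0.24).

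For each member the tested genes of at least 10 CPM, 8064 in number, were ranked by their Pearson correlation with it over the 12 libraries. For *Cd44* these were *Ergic1* (0.99), *Axl* (0.98) and *Pear1* (0.98), and for *Dapl1* they were *Nfam1* (0.98), *Acp5* (0.98) and *Tdrp* (0.98). *Klf2* was nearest to *Dpm3* (0.98), *Nxn* (0.97) and *Irf2bp1* (0.97), and *S1pr1* to *Oxct1* (0.92), *Gpr146* (0.91) and *Stt3b* (0.91). *Igfbp4* was followed by *Ppp1r18* (0.96), *Lrch4* (0.95) and *Eno1* (0.95), and *Actn1* by *Mknk1* (0.93), *Gm20186* (0.90) and *Arhgef18* (0.90). The nearest genes to *Foxo1* were *Numb* (0.97), *Zhx1* (0.93) and *Pias2* (0.91), to *Foxp1* they were *Zfp710* (0.95), *Brd1* (0.93) and *Trak1* (0.91), and to *Bach2* *Prkci* (0.94), *Map3k3* (0.91) and *Tlk1* (0.90). Within the members *Foxp1* and *Bach2* had a correlation of 0.87 and *Foxo1* and *Bach2* one of 0.79. These values describe 12 libraries that share groups and scaling.

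**Figure D5:**
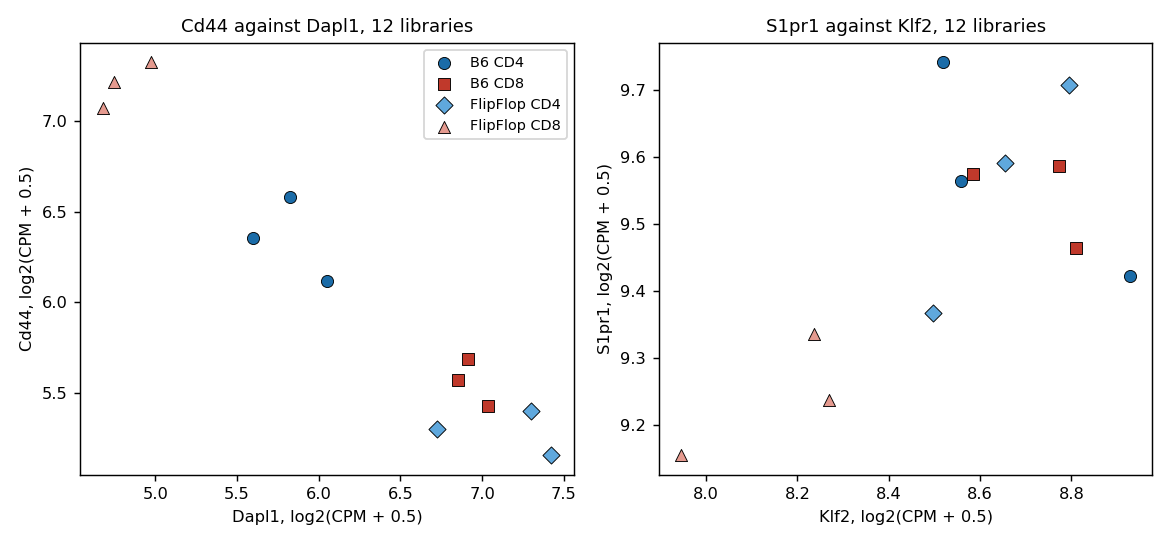
Left, *Cd44* (y axis) against *Dapl1* (x axis), and right, *S1pr1* (y axis) against *Klf2* (x axis), all in log2(CPM + 0.5), with each of the 12 libraries as a point marked by group. The Pearson correlations are -0.97 and 0.67. On the left the FlipFlop CD8 libraries lie at the top left and those of FlipFlop CD4 and B6 CD8 cells lie close together at the lower right, and on the right the 3 FlipFlop CD8 libraries lie at the bottom left.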

How the data were processed

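RNA was measured in 12 libraries of LN T cells, 3 in each of 4 groups taken from the sample labels. The authors sorted the cells, extracted total RNA and sequenced cDNA libraries. The paper names STAR as the aligner to mm10, whereas the submitters' processing notes list TopHat and Trimmomatic. The counting program, gene annotation and strand setting are not given in the sources used here. The deposited values are a normalized signal in 1 table, CPM that the authors scaled by TMM after a filter on low values. No column was left unused, and 0 of 66 pairs of libraries were identical. All 12809 gene identifiers matched GENCODE M21 (GRCm38), from which positions were taken. Promoter windows came from RefSeq (GRCm38.p6).

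Reads per library were derived from the steps between low values. Of the values under 100 CPM, 85.4% to 87.0% were whole reads within 0.02 of a read, too few for a test on read counts. The floor of 3 reads was 0.0857 to 0.120 CPM and covers counting error only, since the reads carry no molecular identifiers.

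A gene was kept when 3 or more libraries reached 1 CPM, which left out 1214 genes. Values were taken as log2(CPM + 0.5), a scale that understates the changes of low genes. The model was that of limma 3.58.1 under R 4.3.3, lmFit followed by eBayes with its trend option, a mean for each group, no replicate block and 8 residual degrees of freedom, and adjusted with the Benjamini-Hochberg method. Intervals of 95% come from the same fit. The fit was tested on simulated data. Plots were made in python 3.11.15 (matplotlib 3.10.9).

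Same-numbered CD4 and CD8 libraries were checked for pairing by the correlation of their deviations from the group means. It was 0.44, 0.27 and 0.51 in FlipFlop libraries, each over 0.1, and 0.18, 0.09 and 0.35 in B6 libraries, so that the FlipFlop libraries were also fitted as pairs. What they share is not given in the sources used here.

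The members and gene lists were chosen with earlier results of these data known. Named were all members, up to 4 genes per list and direction with the largest lineage effect among called genes averaging at least 10 CPM, and the 3 genes nearest to each member by correlation. *Ccr7*, *Lef1*, *Il7r*, *Tcf7*, *Cd3e* and *Ighm* were named beyond that rule, after their values were seen, and some genes that the rule names are not reported here. Alternatives were pseudocounts of 0.1 and 1, all genes, genes averaging at least 5 CPM, other scalings, other models, 2 other call rules, a replicate block and each library left out in turn.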

Additional observations from a re-analysis of the deposited data

Results flagged for a closer look

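For 4 of the 9 members, beside 39.3% of all tested genes, the CD4 minus CD8 difference was not the same in B6 and FlipFlop mice by a limma test of the difference itself, the interaction of strain and coreceptor. In this design the interaction is the lineage effect on another scale, with the same p-values, and adds no further evidence. Taken as B6 minus FlipFlop, it was 2.71 for *Cd44* (standard error 0.17, limma adjusted p = 6.54e-08) and -3.46 for *Dapl1* (standard error 0.23, limma adjusted p = 1.59e-07), with the 2 strains on opposite sides of 0 in both genes. For *Klf2* it was -0.55 (standard error 0.18, limma adjusted p = 0.0267) and for *Actn1* -0.41 (standard error 0.13, limma adjusted p = 0.0243), with B6 differences of -0.05 and -0.01 and FlipFlop differences of 0.50 and 0.39. *Klf2* and *Actn1* were not called with the TMM factor taken out. For *Igfbp4* and *S1pr1* the interaction was 0.68 and -0.28 (limma adjusted p = 0.132 and 0.157).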

How the results depend on the processing

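Of 1719 recomputed member differences, 1636 kept their side of the threshold, 53 lost and 30 gained a call. The sign changed in 37, in each of them without a call in either fit. The counts of members called moved as follows. With more than 5-fold and an unadjusted p under 0.05, 1 member was called in FlipFlop CD4 minus CD8 and 0 in each of the other 8 comparisons. At an adjusted p under 0.01 the counts were 3 in FlipFlop CD8 minus B6 CD4, 3 in FlipFlop CD8 minus B6 CD8, 2 for lineage and 1 for strain. *S1pr1* in FlipFlop CD4 minus CD8 (limma adjusted p = 0.0363) and *Igfbp4* for the coreceptor (limma adjusted p = 0.0146) also fell short of it. Without the TMM factor it was 3 in FlipFlop CD4 minus CD8. An ordinary linear model called 1 member for the coreceptor and 1 for the strain effect. When only the 2 groups were fitted, 2 members were called in FlipFlop CD4 minus B6 CD8, and 1500 genes were called in FlipFlop CD8 minus B6 CD4 in place of 3196. Genes averaging at least 5 CPM gave 301 calls for the coreceptor effect in place of 636. With the FlipFlop libraries alone and the replicate block, 8 members and 5843 genes were called in place of 5 and 3633. A replicate block over all libraries called *Igfbp4* in FlipFlop CD4 minus CD8 (limma adjusted p = 0.0336), *S1pr1* (0.0436) and *Igfbp4* (0.0263) for lineage and *Klf2* (0.0399) for the coreceptor, and it lost no call of a member. Whether same-numbered B6 libraries share more than a number is not given, and their deviations had correlations of 0.18, 0.09 and 0.35. The block takes the spread between pairs out of the error, so it cannot check the strain effect for pairing.

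With each library left out in turn, members called ranged from 3 to 4 in B6 CD4 minus CD8, 4 to 6 in FlipFlop CD4 minus CD8, 0 to 2 in FlipFlop CD4 minus B6 CD8, 3 to 6 in FlipFlop CD8 minus B6 CD4, 3 to 4 in FlipFlop CD4 minus B6 CD4, 3 to 7 in FlipFlop CD8 minus B6 CD8, 2 to 5 for lineage, 3 to 5 for the coreceptor and 2 to 6 for strain. Genes called ranged, in the same order, from 2275 to 3210, 2836 to 4419, 515 to 1566, 1654 to 3751, 2535 to 3464, 4145 to 6112, 4007 to 5229, 396 to 604 and 2485 to 4011. The highest count in FlipFlop CD4 minus B6 CD8 was that without B6 CD4 replicate 1, and the lowest counts in FlipFlop CD8 minus B6 CD4 were those without FlipFlop CD8 replicates 2 (1692) and 3 (1654). For lineage, *Klf2* lost its call without any of B6 CD4 replicates 2 and 3, B6 CD8 replicates 1 and 2, FlipFlop CD4 replicates 1 and 2 and FlipFlop CD8 replicate 3, and *Actn1* without any of B6 CD8 replicates 1 and 2, FlipFlop CD4 replicate 2 and FlipFlop CD8 replicate 1, while *Igfbp4* gained one without FlipFlop CD4 replicate 1 (0.46). For the coreceptor, *Actn1* gained one without B6 CD4 replicate 1 (0.24). For strain, *Klf2* lost its call without B6 CD8 replicate 1 or 2, FlipFlop CD4 replicate 3 or FlipFlop CD8 replicate 3 (-0.24 at the least), *Dapl1* without FlipFlop CD8 replicate 2 (-0.39) or 3 (-0.37) and *Cd44* without B6 CD8 replicate 1 or FlipFlop CD4 replicate 2 (0.26 in both), while *Bach2* (0.34) and *Foxo1* (0.20) gained one without B6 CD4 replicate 3 and *S1pr1* (-0.20) without B6 CD4 replicate 1. The causes were not tested. Without the TMM factor the split of all called genes became uneven. The larger side changed in FlipFlop CD8 minus B6 CD4, with 2872 higher and 551 lower in place of 1528 and 1668. It also changed in FlipFlop CD8 minus B6 CD8, with 4559 and 1132 in place of 2472 and 2707. The larger side stayed the same but grew in FlipFlop CD4 minus CD8, with 785 higher and 2982 lower in place of 1779 and 1854. So it did for lineage, with 3599 and 1163 in place of 2306 and 2248, and for strain, with 3245 and 756 in place of 1827 and 1788.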
